A study of Mus musculus with 12 samples.

Results

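The genes described here encode the enzymes of the tricarboxylic acid (TCA) cycle, the pyruvate dehydrogenase complex that feeds it and mitochondrial fatty acid oxidation, with the transcriptional coactivator Ppargc1a. They are 35 of the 30139 genes or transcripts on a whole-genome mouse expression array and were chosen by symbol from a list. All 35 were found under those symbols in the probe annotation, with 45 probes in all. The list held 19 TCA cycle and pyruvate dehydrogenase genes, 15 fatty acid oxidation genes and Ppargc1a. Signals were compared between normal and polyp tissue of the colorectum of Apc mutant mice and normal tissue of wild-type mice.

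The TCA cycle oxidises acetyl-CoA in the mitochondrial matrix and hands electrons to the respiratory chain. Acetyl-CoA enters the cycle from pyruvate through the pyruvate dehydrogenase complex, or from fatty acids, which carnitine carries across the inner mitochondrial membrane and which are then shortened by repeated rounds of dehydrogenation, hydration, dehydrogenation and thiolysis. Absorptive colonocytes depend on this machinery, since they burn butyrate made by gut bacteria as their main fuel. Ppargc1a, also known as PGC-1alpha, is a coactivator of nuclear receptors that promotes mitochondrial gene expression.

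The 12 arrays fell into 3 groups of 4, all from female C57BL/6N mice aged 14 weeks. The wild-type normal group held normal colorectal tissue of wild-type mice 102, 104, 105 and 108. The Apc normal and Apc polyp groups held normal colorectal tissue and colorectal polyps of mice 103, 106, 107 and 110, which are heterozygous for the Apc allele Δ716 (Apc+/Δ716). That allele is a germline truncation of the tumour suppressor that restrains Wnt signalling, and it is carried by every cell of the mouse, so the Apc normal tissue carries it too. The mouse numbers in the titles pair each polyp array with the normal array of the same mouse. The labels do not say whether a polyp array holds 1 polyp or several.

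Between 64.6 and 73.8% of spots were well above background on each array and 0 were saturated. All 45 probes of the listed genes were well above background on all 12 arrays, so each of the 35 genes was tested among the 20084 that passed the filter on dim probes. All wild-type arrays lay on slide 1, mice 103 and 106 on slide 2 and mice 107 and 110 on slide 3, so slide and genotype cannot be told apart. The Apc probe, which does not separate the alleles, had mean log2 levels of −3.22 ± 0.03 for wild-type mice and, for the Apc mice, −3.16 ± 0.16 in normal tissue and −3.54 ± 0.10 in polyps (SD, n = 4 each). The tissue label was checked against 10 markers of colonic epithelium, and all 10 were well above background on all 12 arrays. In whole tissue, fewer cells of a type and less RNA per cell cannot be told apart.

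Most of these genes were lower in polyps than in the normal tissue of the same mice. Levels are given throughout as the log2 of the signal after subtracting that array's 75th percentile. On this scale 28 of 35 genes were lower in polyps at a limma adjusted p under 0.05, 1 was higher and 6 did not pass the test. Over all 20084 genes tested, 45.5% were called, 24.9% lower and 20.5% higher. In 28 of the 35 genes every polyp array lay below every normal array, and in 3 above, where such gaps were found for 24.7% of all genes in the lower and 20.5% in the higher direction. The median difference was −0.83 for the 35 genes, −0.59 for the 19 TCA cycle and pyruvate dehydrogenase genes and −1.03 for the 15 fatty acid oxidation genes, against −0.06 for all genes tested. The decline exceeded 2-fold in 13 of the 28 genes, a share near that of all genes, where it did in 2376 of the 5009 called lower. The largest declines were those of Slc25a20 at 3.59-fold and Hadh at 3.097-fold. The 1 gene that rose was Idh1, at 1.67-fold higher. When signals were taken relative to 4 epithelial genes (Epcam, Cdh1, Krt8 and Krt19), a scaling chosen after seeing the data that moved the median of all genes from −0.06 to 0.45, 15 of the 35 were lower and 3 higher, against 2176 lower and 8302 higher among all genes, and Idh3g, Sucla2 and Mdh2 turned from lower to differences above 0 that did not pass the test. The 10 further genes that lost their call under it were Pdha1, Dlat and Dld, which left the pyruvate dehydrogenase complex with none, and Dlst, Fh1, Mdh1, Cpt2, Hadha, Etfa and Etfdh. Under it Pdhb, Idh3a and Acadl, which had no call before, also moved above 0 without passing the test. This scaling raises every gene by the mean decline of those 4 epithelial genes, 0.51 on the log2 scale, so the calls lost were those of the smaller differences. The 10 epithelial markers had a wider range, from −2.37 to −0.36 with a median of −1.32, so the counts depend on which of them set the scale.

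**Figure D1:**
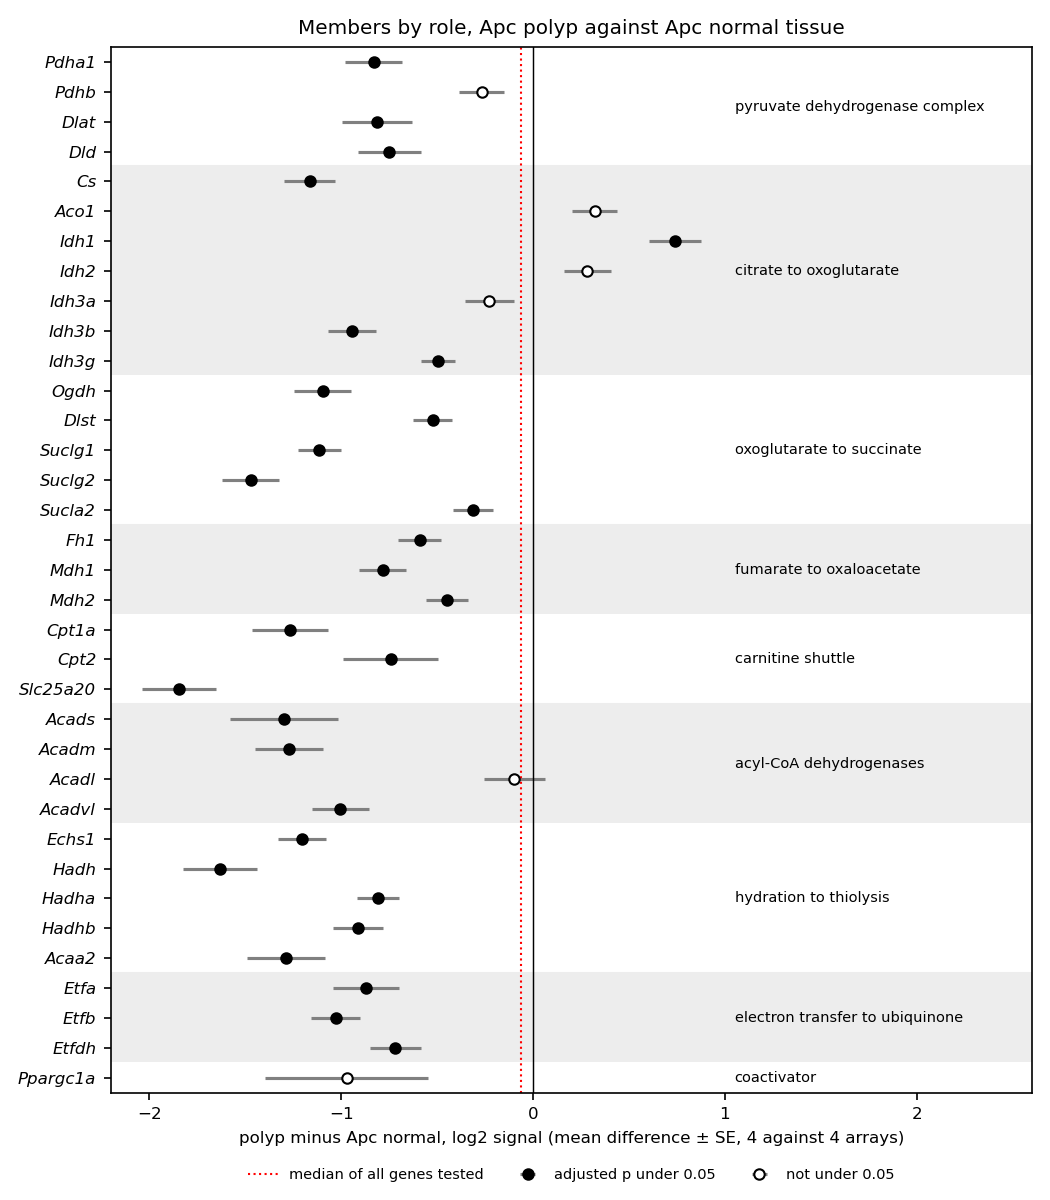
Difference between Apc polyp and Apc normal tissue for each of the 35 genes, on the log2 signal scale (x axis), ordered by role (y axis). Points are mean differences with bars of ± SE (4 against 4 arrays), filled where the limma adjusted p was under 0.05; the dotted line at −0.06 is the median of all 20084 genes tested. The points lie from −1.84 (Slc25a20) to 0.74 (Idh1), and the 3 points right of 0 (Aco1, Idh1 and Idh2) are all in the step from citrate to oxoglutarate. Scaled to 4 epithelial genes, Pdhb, Idh3a, Idh3g, Sucla2, Mdh2 and Acadl also turn positive without passing the test.

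Promoter sequence was examined because most of these genes moved in the same direction. RefSeq (GRCm38.p6) windows from 250 bases before to 50 bases after a start were held for 33 of the 35 genes. The estrogen-related receptor element TCAAGGTCA, searched on both strands, was in 0 of the 33 and in 0.466% of all 27025 genes with a window. The direct repeat of AGGTCA spaced by 1 base, bound by HNF4 and by PPAR with RXR, was in 0 of 33 and in 0.0481% of all. The palindromic NRF1 element, whose letters stand in capitals in the Etfdh line, was in 1 of 33 (3.03%, Etfdh) against 1.07% of all, and the E box CACGTG in 1 of 33 (3.03%, Ogdh) against 8.09%. The shorter AAGGTCA, which lies within the longer receptor element and was added after that element had given no match, was in 2 of 33 (6.06%, Acadm and Ogdh) against 5.38%. The shares rest on 0 to 2 matches each, and no test was made. The 3 stretches that follow show where the matches lie, with the searched letters in capitals, 5′ to 3′ on the strand of the gene. The capitals in Acadm are the reverse complement of AAGGTCA, and Ogdh has further start windows with a match.
Etfdh, chr3:79628866-79628915, minus strand: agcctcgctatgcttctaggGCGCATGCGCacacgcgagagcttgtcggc
Ogdh, chr11:6292040-6292085, plus strand: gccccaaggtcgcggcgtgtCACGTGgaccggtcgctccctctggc
Acadm, chr3:153944866-153944893, minus strand: gTGACCTTcgggctccggtgacactggg

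The pyruvate dehydrogenase complex converts pyruvate to acetyl-CoA, and 3 of its 4 measured genes fell. Pdha1 (probe at chrX:156560665-156560724, mm9), the catalytic E1 alpha subunit, had levels of 2.61, 2.17, 2.64 and 2.23 in Apc normal tissue of mice 103, 106, 107 and 110, the order used throughout. The polyps of the same mice gave 1.53, 1.38, 1.73 and 1.68, all below the lowest normal array. The difference was −0.83 ± 0.15 (SE), a 1.78-fold decline (limma adjusted p = 0.00281). Dlat, the E2 acetyltransferase, fell by 0.81 ± 0.18, and Dld, the E3 dihydrolipoamide dehydrogenase that the oxoglutarate dehydrogenase complex shares, fell by 0.75 ± 0.16 on the log2 scale. Pdhb, the E1 beta partner of Pdha1, did not pass the test. Its levels were 3.69, 3.52, 3.78 and 3.39 in normal tissue and 3.35, 3.36, 3.21 and 3.39 in polyps, and the groups met at the mouse 110 arrays. Its difference was −0.27 ± 0.12 with a 95% interval of −0.54 to 0.00 (adjusted p = 0.098), and it passed on 7 arrays, with the normal tissue of mouse 110 left out (−0.34, adjusted p = 0.0495).

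The step from citrate to oxoglutarate was where the listed genes differed most among themselves: of 7 genes, 3 fell, 1 rose and 3 did not pass the test. Cs, citrate synthase, which condenses acetyl-CoA with oxaloacetate (probe at chr10:127799428-127799487, mm9), had levels of 6.49, 6.01, 6.23 and 6.28 in Apc normal tissue. In polyps they were 5.26, 4.97, 4.99 and 5.14, well clear of the normal arrays in every mouse. This was a decline of 2.24-fold (−1.16 ± 0.13, limma adjusted p = 0.000342).

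Of the 3 subunits of the NAD+-dependent isocitrate dehydrogenase of the cycle, 2 fell and Idh3a did not pass the test. Idh3b, a regulatory subunit, had levels of 4.02, 3.76, 4.17 and 3.80 in Apc normal tissue and of 2.86, 2.97, 3.04 and 3.11 in polyps (−0.94 ± 0.12, limma adjusted p = 0.000642). Idh3g, the other regulatory subunit, fell by 0.50 ± 0.09 (adjusted p = 0.00241), a call that was lost under quantile normalization (−0.15, adjusted p = 0.195). Idh3a, the catalytic subunit, had levels of 4.01, 3.83, 3.72 and 3.90 in normal tissue and 3.67, 3.83, 3.37 and 3.68 in polyps, and these groups overlapped. Its difference was −0.23 ± 0.13 with a 95% interval of −0.52 to 0.07 (adjusted p = 0.179). On the same array, the Idh3a signal relative to Idh3b was −0.07 ± 0.26 in normal tissue and 0.65 ± 0.24 in polyps (log2, mean ± SD, n = 4). This pair was singled out after its values were seen, so no test is attached to it.

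The NADP+-dependent isocitrate dehydrogenases and the cytosolic aconitase ran the other way. Idh1, the cytosolic and peroxisomal enzyme (probe at chr1:65206035-65206094, mm9), had levels of −0.12, −0.32, −0.27 and −0.27 in Apc normal tissue and of 0.40, 0.22, 0.75 and 0.61 in polyps. Every polyp array lay above every normal array, and the rise was 1.67-fold (0.74 ± 0.13, limma adjusted p = 0.00289). Idh2, the mitochondrial NADP+-dependent enzyme (probe at chr7:87239736-87239795, mm9), had levels of 3.96, 3.73, 4.15 and 4.06 in normal tissue and 4.25, 4.22, 4.17 and 4.40 in polyps. Its groups did not overlap, which held for 20.5% of all genes in the higher direction, but the difference of 0.28 ± 0.12 did not pass the test (adjusted p = 0.0903). It passed with quantile normalization (0.57, adjusted p = 0.00602) and when all 12 arrays shared 1 fit (0.28, adjusted p = 0.0465). Aco1, a cytosolic aconitase that doubles as an iron-responsive RNA-binding protein, had levels of −3.01, −2.83, −2.88 and −2.69 in normal tissue and −2.56, −2.33, −2.59 and −2.65 in polyps (0.32 ± 0.12, adjusted p = 0.0527). With the normal tissue of mouse 110 left out, that difference was 0.37 (adjusted p = 0.0432). These were the only genes of the 35 that were higher in polyps than in normal tissue in all 4 mice.

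From oxoglutarate to succinate all 5 genes fell, by 1.24-fold to 2.77-fold. Ogdh, the E1 subunit of the oxoglutarate dehydrogenase complex, whose promoter window with the E box is printed above, had levels of 4.79, 4.44, 4.68 and 4.71 in Apc normal tissue and 3.90, 3.42, 3.35 and 3.56 in polyps (−1.10 ± 0.15, limma adjusted p = 0.000699). Dlst, its E2 subunit, fell by 0.52 ± 0.10 on the log2 scale. Succinyl-CoA ligase joins the shared alpha subunit Suclg1 to either of 2 beta subunits, Suclg2 in the GTP-forming and Sucla2 in the ATP-forming enzyme. Suclg1 fell by 1.11 ± 0.11 (adjusted p = 0.000206).

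Both beta subunits of succinyl-CoA ligase were called lower, Sucla2 only narrowly. Suclg2 (probe at chr6:95424712-95424771, mm9) had levels of 2.14, 1.93, 2.35 and 2.11 in Apc normal tissue. Its polyp levels were 0.68, 0.32, 0.83 and 0.81, which left a gap of more than 1 log2 unit between the groups. The decline was 2.77-fold (−1.47 ± 0.15, limma adjusted p = 0.000223), the largest of the 19 TCA cycle and pyruvate dehydrogenase genes. Sucla2 had levels of 3.86, 3.90, 4.01 and 3.73 in normal tissue and 3.54, 3.58, 3.46 and 3.69 in polyps (−0.31 ± 0.10, adjusted p = 0.0387). The arrays of mouse 110 came close to each other and the other mice were separated by wider gaps. The Sucla2 call was lost when any of 6 arrays was left out, those of mice 103, 106 and 107 (−0.32 to −0.27, adjusted p = 0.0652 to 0.100), with the mouse as a block (adjusted p = 0.0879) and under quantile normalization (−0.07, adjusted p = 0.595). Within an array, the Suclg2 signal relative to Sucla2 was −1.74 ± 0.16 in normal tissue and −2.90 ± 0.26 in polyps (SD, n = 4), a comparison chosen after the values were seen and given without a test.

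The 3 genes that take fumarate to oxaloacetate all fell, by 1.36-fold to 1.72-fold. Fh1, fumarate hydratase, fell by 0.59 ± 0.11 (limma adjusted p = 0.00346). Mdh1, the cytosolic malate dehydrogenase of the malate-aspartate shuttle, fell by 0.78 ± 0.12 (adjusted p = 0.00139). Mdh2, the malate dehydrogenase of the cycle itself, had levels of 6.17, 5.92, 6.31 and 6.11 in Apc normal tissue and 5.74, 5.61, 5.68 and 5.69 in polyps. All polyp arrays lay below all normal arrays (−0.45 ± 0.11, adjusted p = 0.011). The Mdh2 difference shrank to −0.09 under quantile normalization (adjusted p = 0.55) and did not pass with the median of each array as the scale (−0.44, adjusted p = 0.063).

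The carnitine shuttle, which brings long-chain fatty acids into the matrix, was lower at each of its 3 genes. Slc25a20 (probe at chr9:108585399-108585458, mm9), the carnitine-acylcarnitine translocase of the inner membrane, had levels of 2.68, 2.26, 2.05 and 2.47 in Apc normal tissue and 0.49, 0.25, 0.40 and 0.94 in polyps. Its decline of 3.59-fold was the largest among the 35 genes (−1.84 ± 0.19, limma adjusted p = 0.000241). Cpt1a (probe at chr19:3385374-3385433, mm9), the malonyl-CoA-sensitive carnitine palmitoyltransferase of the outer membrane, had levels of 3.41, 2.74, 3.34 and 3.45 in normal tissue and 2.11, 1.65, 1.90 and 2.21 in polyps. It was 2.41-fold lower (−1.27 ± 0.20, adjusted p = 0.00141), and mouse 106 was lowest in both tissues. Cpt2, which re-forms the acyl-CoA on the matrix side, had levels of 3.08, 2.23, 3.25 and 2.29 in normal tissue and 2.01, 2.11, 1.81 and 1.95 in polyps. The normal arrays of mice 103 and 107 stood well above those of mice 106 and 110, and the polyps were close together. Its difference of −0.74 ± 0.25 passed narrowly (adjusted p = 0.0402) and did not pass when any of 6 arrays was left out: the normal tissue of mice 103 or 107, or any of the 4 polyps (−0.79 to −0.56, adjusted p = 0.0681 to 0.0954), nor with the mouse as a block (adjusted p = 0.0659).

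Of the 4 acyl-CoA dehydrogenases, which open each round of oxidation for acyl chains of different lengths, 3 fell and Acadl did not pass the test. Acadm, the medium-chain enzyme with the AAGGTCA match shown above (probe at chr3:153585670-153585729, mm9), had levels of 3.83, 3.49, 4.19 and 3.61 in Apc normal tissue. The polyps gave 2.62, 2.26, 2.50 and 2.66, so that each polyp lay below every normal array (2.41-fold lower, −1.27 ± 0.18, limma adjusted p = 0.000789). Acads, the short-chain enzyme that acts on butyryl-CoA, had levels of 1.59, 0.54, 1.89 and 0.86 in normal tissue and 0.03, −0.10, −0.17 and −0.06 in polyps. As with Cpt2, the normal arrays of mice 103 and 107 were well above those of mice 106 and 110, while the polyps lay within a narrow range (−1.30 ± 0.28, adjusted p = 0.00679). Acadvl, the very-long-chain enzyme, fell by 1.004 ± 0.15 (adjusted p = 0.00103). Acadl, the long-chain enzyme (probe at chr1:66877673-66877732, mm9), had levels of 2.13, 1.94, 1.78 and 2.34 in normal tissue and 1.87, 1.81, 1.87 and 2.25 in polyps. These overlapped over most of their range, and the 95% interval of the difference, −0.46 to 0.27 around −0.10, did not include the 2-fold declines seen for the other 3 enzymes (adjusted p = 0.647). The Acadl signal relative to Acadm on the same array was −1.73 ± 0.49 in normal tissue and −0.56 ± 0.16 in polyps (SD, n = 4), again for a pair picked after the values were seen.

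All 5 genes of the later steps, from hydration to thiolysis, were lower in polyps. Hadh, the medium- and short-chain hydroxyacyl-CoA dehydrogenase (probe at chr3:130936889-130936948, mm9), had levels of 3.52, 2.96, 3.55 and 3.38 in Apc normal tissue and 2.11, 1.35, 1.72 and 1.69 in polyps. The decline of 3.097-fold followed only that of Slc25a20 in size (−1.63 ± 0.20, limma adjusted p = 0.000422). Echs1, the short-chain enoyl-CoA hydratase, fell by 1.20 ± 0.12 (adjusted p = 0.000235). Acaa2, the mitochondrial acetyl-CoA acyltransferase that performs thiolysis, fell by 1.29 ± 0.20 (adjusted p = 0.00142). Hadha and Hadhb, the subunits of the trifunctional protein that carries out these steps for long chains, declined to a like degree, Hadha by 0.81 ± 0.11 and Hadhb by 0.91 ± 0.13 on the log2 scale.

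Electrons from the acyl-CoA dehydrogenases reach ubiquinone through the electron transfer flavoprotein and its oxidoreductase, and all 3 of these genes fell. Etfb, the beta subunit, was 2.04-fold lower (−1.03 ± 0.13, limma adjusted p = 0.000476), Etfa, the alpha subunit, 1.83-fold lower (−0.87 ± 0.17, adjusted p = 0.00421) and Etfdh, the oxidoreductase, 1.64-fold lower (−0.72 ± 0.13, adjusted p = 0.00326). Etfdh, whose window with the NRF1 element is printed above, had levels of 2.98, 2.83, 3.15 and 2.71 in Apc normal tissue and 2.18, 2.004, 2.23 and 2.38 in polyps. No polyp array reached the lowest normal array.

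The coactivator Ppargc1a (probe at chr5:51848928-51848987, mm9) varied more between the Apc mice than the enzymes did. Its levels were 1.87, 0.89, 0.26 and 1.17 in Apc normal tissue and 0.88, 0.31, −0.78 and −0.10 in polyps. The groups overlapped, and yet the polyp lay below the normal tissue of the same mouse in all 4 mice, by 0.58 to 1.27. Without regard to mouse the difference was −0.97 ± 0.43 (limma adjusted p = 0.0967). With the mouse as a block it passed (−0.97, adjusted p = 0.00565), as it did with the polyp of mouse 103 left out (−1.24, adjusted p = 0.0491) or the normal tissue of mouse 107 (−1.23, adjusted p = 0.0463).

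**Figure D2:**
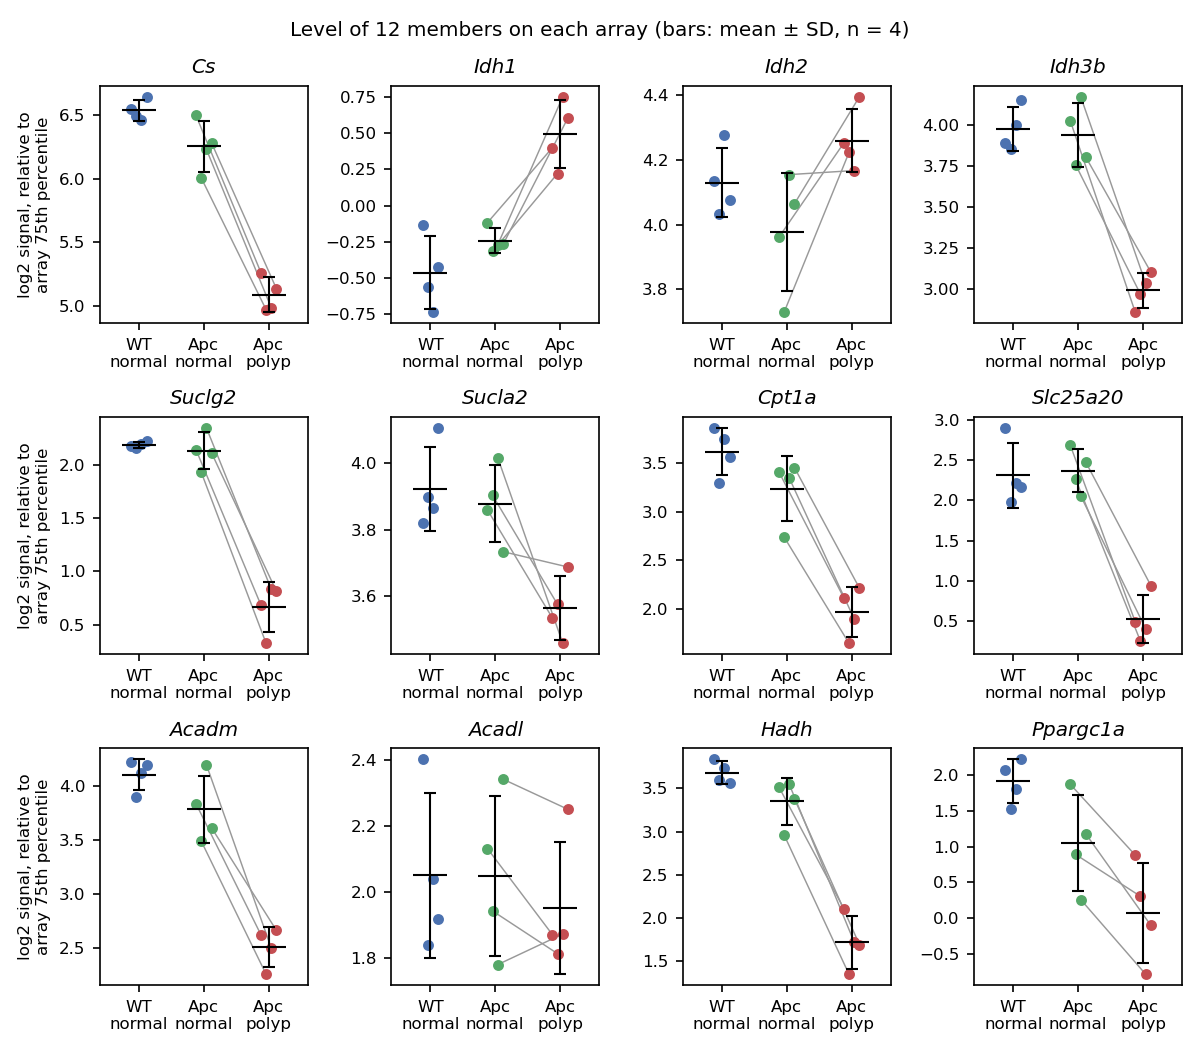
Levels of 12 of the 35 genes on each array, as log2 signal minus that array's 75th percentile (y axis; each panel has its own range), by group (x axis: normal tissue of wild-type mice, then normal tissue and polyps of Apc mice). Each point is 1 array, bars show the mean ± SD (n = 4), and grey lines join the tissues of the same mouse. Idh1 rises and Cs, Idh3b, Suclg2, Cpt1a, Slc25a20, Acadm and Hadh fall in every mouse, Sucla2 comes close to its normal level in mouse 110, and the Acadl points overlap.

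By mouse, the median difference between polyp and normal tissue over the 35 genes was −0.97 in mouse 103, −0.78 in mouse 106, −1.06 in mouse 107 and −0.66 in mouse 110. In all 4 mice, 30 of the 35 genes were lower in the polyp and 3 (Aco1, Idh1 and Idh2) were higher, as were 34.0% and 28.0% of all genes. The other two were Pdhb and Acadl. Their polyp was above the normal tissue in mouse 110 for Pdhb and in mouse 107 for Acadl. With the mouse as a block, 27 genes were called lower and 1 higher, against 25.6% and 20.8% of all genes. The median was −0.84 within slide 2 and −0.88 within slide 3, where 2 arrays against 2 left 10 and 6 of the 35 genes called lower, against 9.93% and 4.89% of all genes, and 0 called higher. In polyps against Apc normal tissue, probes agreed within genes: the 8 genes with several probes had 18 probes, all with the sign of the gene, and differed by at most 0.171.

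Other genes of the same pathways were measured from 4 lists that exclude the 35 genes. In polyps against Apc normal tissue, 24.9% of all genes tested were called lower and 20.5% higher, the shares beside which each count stands. Of 25 other genes of the TCA cycle, pyruvate use and shuttles, 17 were lower in polyps, 1 was higher and 7 did not pass the test (limma adjusted p under 0.05), with a median of −0.89. Mpc2, a subunit of the mitochondrial pyruvate carrier, had levels of 3.60, 3.49, 3.67 and 3.44 in Apc normal tissue and 2.50, 2.43, 2.46 and 2.66 in polyps (−1.04 ± 0.10, adjusted p = 0.000201). Sdhc fell by 1.11 ± 0.13, Sdhb fell by 1.003 ± 0.11, and both encode subunits of succinate dehydrogenase, the step of the cycle that the 35 genes leave out. Its other subunits, named here after their values were seen, were also lower, Sdha at −1.01 and Sdhd at −0.89. Pdp1, the phosphatase that activates pyruvate dehydrogenase, rose by 0.73 ± 0.19 on the log2 scale (adjusted p = 0.0144).

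Among 30 other genes of fatty acid activation and oxidation, 29 were tested, of which 19 were lower, 2 were higher and 8 did not pass the test, with a median of −0.79. Of all genes tested, 24.9% were lower and 20.5% higher. The brain-enriched ligase Acsl6 was not tested, since its probe was too dim. The lower genes included Acad11, an acyl-CoA dehydrogenase (−1.89 ± 0.20, limma adjusted p = 0.000279), and Ehhadh, an enzyme of peroxisomal oxidation (−2.03 ± 0.23, adjusted p = 0.000336). Ehhadh had levels of 1.03, 0.37, 1.16 and 0.80 in Apc normal tissue and −1.08, −1.72, −0.95 and −1.01 in polyps, which is a wider gap between tissues than any of the 35 genes showed. The genes that rose were Acsl4, an acyl-CoA synthetase that prefers polyunsaturated chains (0.85 ± 0.20, adjusted p = 0.00929), and Cpt1c, a carnitine palmitoyltransferase best known from neurons (0.51 ± 0.18, adjusted p = 0.045). The Cpt1c call was lost when any of 7 of the 8 arrays was left out, all except the polyp array of mouse 110 (0.37 to 0.54, adjusted p = 0.0712 to 0.0968).

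Regulators of these pathways were measured as 17 genes, of which 9 were lower, 3 were higher and 5 did not pass the test, with a median of −0.91. Of all genes tested, 24.9% were lower and 20.5% higher, so the count of higher regulators was not above the share of all genes. Esrra, the estrogen-related receptor that works with Ppargc1a, had levels of 4.11, 3.64, 3.64 and 3.69 in Apc normal tissue and 2.61, 2.33, 2.38 and 2.56 in polyps. It was 2.46-fold lower (−1.30 ± 0.14, limma adjusted p = 0.000277). Its relative Esrrg had levels of −1.55, −2.96, −2.33 and −2.40 in normal tissue, and its probe was well above background on only 1 of 4 polyp arrays. It was called lower (adjusted p = 0.000108), but the size of the difference depended on the treatment of background, at −4.59 with the processed signal and −2.12 with normexp correction and quantile normalization. Rxra, the partner of many nuclear receptors, fell by 1.37 ± 0.15. The 3 regulators that rose were Myc, the Wnt-responsive transcription factor (1.81 ± 0.12, adjusted p = 6.17e-05), Nrip1, a corepressor of nuclear receptors (0.53 ± 0.16, adjusted p = 0.03), and Pprc1, a relative of Ppargc1a (0.43 ± 0.15, adjusted p = 0.0462). Leaving out any of 5 arrays ended the Nrip1 call (adjusted p = 0.056 to 0.0842; polyps of mice 103 and 106, normal tissue of mice 106, 107 and 110), and any of 6 ended the Pprc1 call (adjusted p = 0.0697 to 0.122; polyps of mice 103, 106 and 110, and the same 3 normal arrays).

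Genes for mitochondrial import and upkeep moved much less. Of these 22 genes 6 were lower, 1 was higher and 15 did not pass the test, with a median of −0.05 against −0.06 for all genes. The count of lower genes was near the share of all genes, of which 24.9% were lower and 20.5% higher. The lower genes of smallest p were Mfn2, a mitofusin of the outer membrane (−1.29 ± 0.18, limma adjusted p = 0.000827), and the outer-membrane channels Vdac1 (−0.59 ± 0.09, adjusted p = 0.00129) and Vdac2 (−0.65 ± 0.10, adjusted p = 0.00153). The Vdac1 and Vdac2 calls were lost under quantile normalization (−0.21 and −0.26, adjusted p = 0.12 and 0.0559). Tomm20, a receptor for imported proteins, rose by 0.50 ± 0.09 on the log2 scale (adjusted p = 0.00308). That call was lost when the mean over its probes was used (0.30, adjusted p = 0.15). The mean level of this list was 2.70 to 2.89 on the Apc normal arrays and 2.58 to 2.64 on the polyp arrays.

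**Figure D3:**
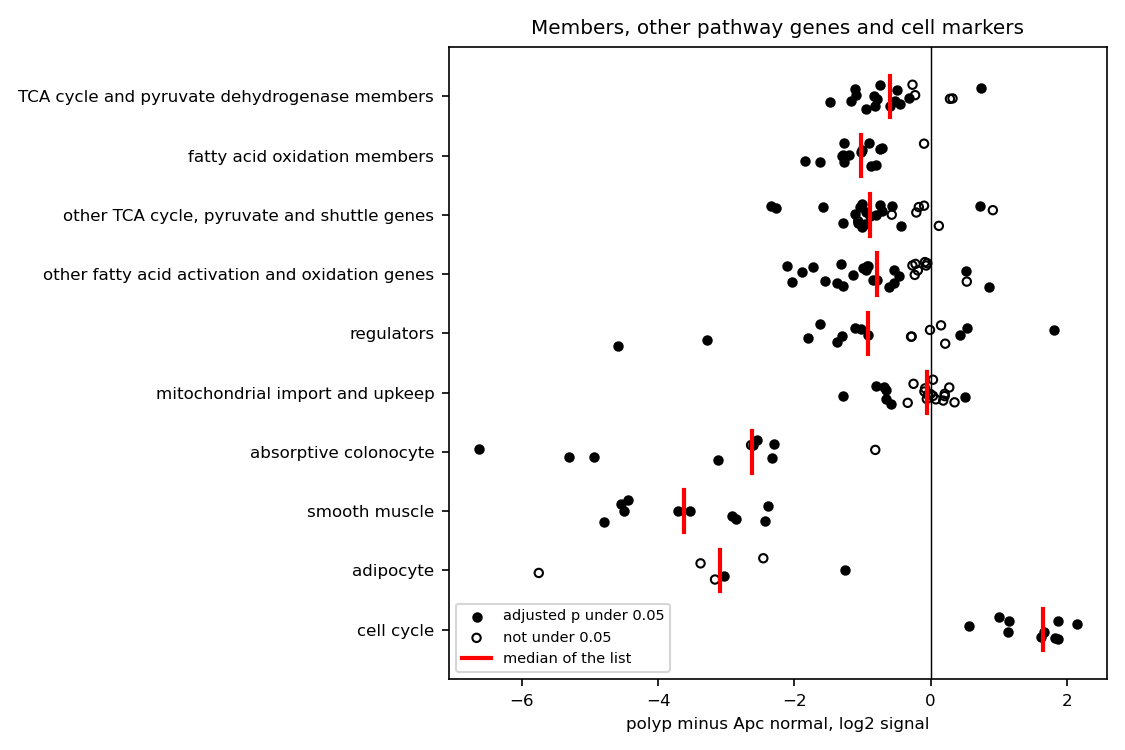
Difference between Apc polyp and Apc normal tissue on the log2 signal scale (x axis) for each tested gene of 10 lists (y axis). Each point is 1 gene, filled where the limma adjusted p was under 0.05, and each red bar is the median of its list: −0.59 and −1.03 for the listed TCA cycle and fatty acid oxidation genes, −0.05 for mitochondrial import and upkeep, −3.62 for smooth muscle markers and 1.64 for cell cycle genes.

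Markers of several cell types moved in the same comparison, in which 24.9% of all genes tested were called lower and 20.5% higher. Smooth muscle markers were lower for 10 of 10 genes, with a median of −3.62, and the mean level of the list was 3.18 to 3.70 on the Apc normal arrays and −0.93 to 0.38 on the polyp arrays. Lmod1, a leiomodin of smooth muscle, had 0 of 4 polyp arrays well above background and was at least 3.47-fold lower, a bound against the lowest signal well above background on each array. The other 9 smooth muscle markers were above background on all arrays. Absorptive colonocyte markers were lower for 8 of 10 genes (median −2.62), with a list mean of 4.63 to 5.53 in normal tissue and 1.08 to 2.09 in polyps. Slc26a3, the chloride-bicarbonate exchanger of colonocytes, had levels of 4.93, 3.76, 4.78 and 4.21 in normal tissue and −0.33, −2.04, −0.61 and −0.57 in polyps.

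Of the epithelial markers 7 of 10 were lower, with a median of −1.32 and a list mean of 4.40 to 5.16 in normal tissue and 2.99 to 3.79 in polyps. Among them Epcam was at −0.36 (limma adjusted p = 0.0719) and Cdh1 at −0.40 (adjusted p = 0.107), while Krt8 fell by 0.58 (adjusted p = 0.00115). Markers of enteric nerve and glia were lower for 7 of 8 genes (list mean −2.88 to −2.42 in normal tissue, −5.10 to −3.95 in polyps). Of 6 adipocyte markers tested, 2 were lower. The list mean, taken over all 8 markers, spread from −4.68 to −0.85 in normal tissue and from −5.72 to −3.28 in polyps. It includes dim markers, and Adipoq and Cfd were each well above background on only 1 of 4 polyp arrays. Plin1 and Lep, which define fat cells, were too dim to be tested. Skeletal muscle markers were lower for 3 of the 6 tested, immune cell markers were higher for 4 and lower for 1 of 10, and cell cycle genes were higher for 10 of 10 (median 1.64). These counts stand beside 24.9% lower and 20.5% higher among all genes. The part of these cell types in the declines of the 35 genes was not tested, and the scaling to 4 epithelial genes, which moves all genes alike, is no test of it.

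Apc normal arrays were set against wild-type normal arrays, a comparison in which genotype and slide cannot be told apart. None of the 35 genes passed the test in limma, and 2 were at an unadjusted p under 0.05, where 34 of 20084 genes passed overall (0.169%, of which 0.0199% lower and 0.149% higher) and 3439 were at an unadjusted p under 0.05. Of the 35 differences, 24 were below 0 and 11 above, with a median of −0.05 against −0.02 for all genes. Among all 20084 genes, 10625 differences were below 0 and 9459 above. The 2 genes at an unadjusted p under 0.05 were Ppargc1a and Cs. Ppargc1a had levels of 2.07, 1.53, 1.81 and 2.22 in wild-type mice 102, 104, 105 and 108, against the 0.26 to 1.87 given above for Apc normal tissue (−0.86 ± 0.33, adjusted p = 0.245). Cs had 6.55, 6.49, 6.46 and 6.64 in wild-type tissue (−0.28 ± 0.12, adjusted p = 0.292). The Cs groups overlapped through the normal array of mouse 103.

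Hadh was the only gene of the 35 whose normal groups did not overlap, with 3.84, 3.59, 3.74 and 3.56 in wild-type tissue, all above the 2.96 to 3.55 of Apc normal tissue (−0.33 ± 0.15, limma adjusted p = 0.313). Such a gap was found for 5.53% of all genes in the lower and 4.78% in the higher direction. The intervals show what sizes these arrays leave possible: for Slc25a20 the 95% interval of the difference was −0.46 to 0.57, and for Suclg2 it was −0.30 to 0.20. The smooth muscle markers had a median of −0.51 in this comparison, with 0 of 10 called and 8 of 10 at an unadjusted p under 0.05, and the adipocyte list mean of the wild-type arrays, −3.72 to −1.38, lay within the range of the Apc normal arrays. Immune cell markers were above 0 for 10 of 10 genes here, with a median of 1.06, 0 called and 4 at an unadjusted p under 0.05. The part of these cells in the differences of the 35 genes was not tested.

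Polyps were also set against normal tissue of the wild-type mice, a comparison that shares its polyp arrays with the one above and its wild-type arrays with the one before. Against this reference 30 of 35 genes were lower, 2 were higher and 3 did not pass the test (limma adjusted p under 0.05), where 60.2% of all genes were called, 32.8% lower and 27.4% higher. The median was −0.97, against −0.05 for all genes. Scaled to the 4 epithelial genes, which moved that median to 0.54, 19 were lower and 4 higher, against 2703 and 10845 of all genes. With that scaling Pdhb, Idh3a, Idh3g, Sucla2, Fh1, Mdh2 and Acadl turned positive, of which Acadl passed the test (0.49, adjusted p = 0.0156). Hadh differed by −1.96 ± 0.16 (3.90-fold lower), Slc25a20 by −1.79 ± 0.23 (3.46-fold lower), Cpt1a by −1.65 ± 0.17 (3.13-fold lower) and Acadm by −1.59 ± 0.12 (3.01-fold lower).

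Ppargc1a, which overlapped between the Apc tissues, was separated here, as 31.4% of all genes were in the lower and 25.3% in the higher direction: its polyps lay between −0.78 and 0.88 and wild-type tissue between 1.53 and 2.22, a 3.56-fold difference (−1.83 ± 0.34, limma adjusted p = 0.00185). Idh1 was 1.95-fold higher (0.96 ± 0.16, adjusted p = 0.0012), with wild-type levels of −0.14, −0.56, −0.74 and −0.42. Aco1 was 1.41-fold higher (0.50 ± 0.14, adjusted p = 0.0132), with wild-type levels of −3.28, −2.86, −3.17 and −2.80. The genes that did not pass were Idh2 (0.13 ± 0.09, adjusted p = 0.243), Idh3a (−0.30 ± 0.13, adjusted p = 0.073) and Acadl (−0.10 ± 0.15, adjusted p = 0.599). Acadl had wild-type levels of 2.40, 1.84, 2.04 and 1.92, within which most of the Apc arrays fell. Pdhb passed at −0.26 ± 0.08 (adjusted p = 0.0234) but not with the array of wild-type mouse 104 or the polyp of mouse 107 left out (−0.23 and −0.22, adjusted p = 0.0675 and 0.063), nor under quantile normalization (−0.04, adjusted p = 0.666). The dimmer Pdhb probes, not used for the test, differed by −0.76 and −0.24 in this comparison.

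**Figure D4:**
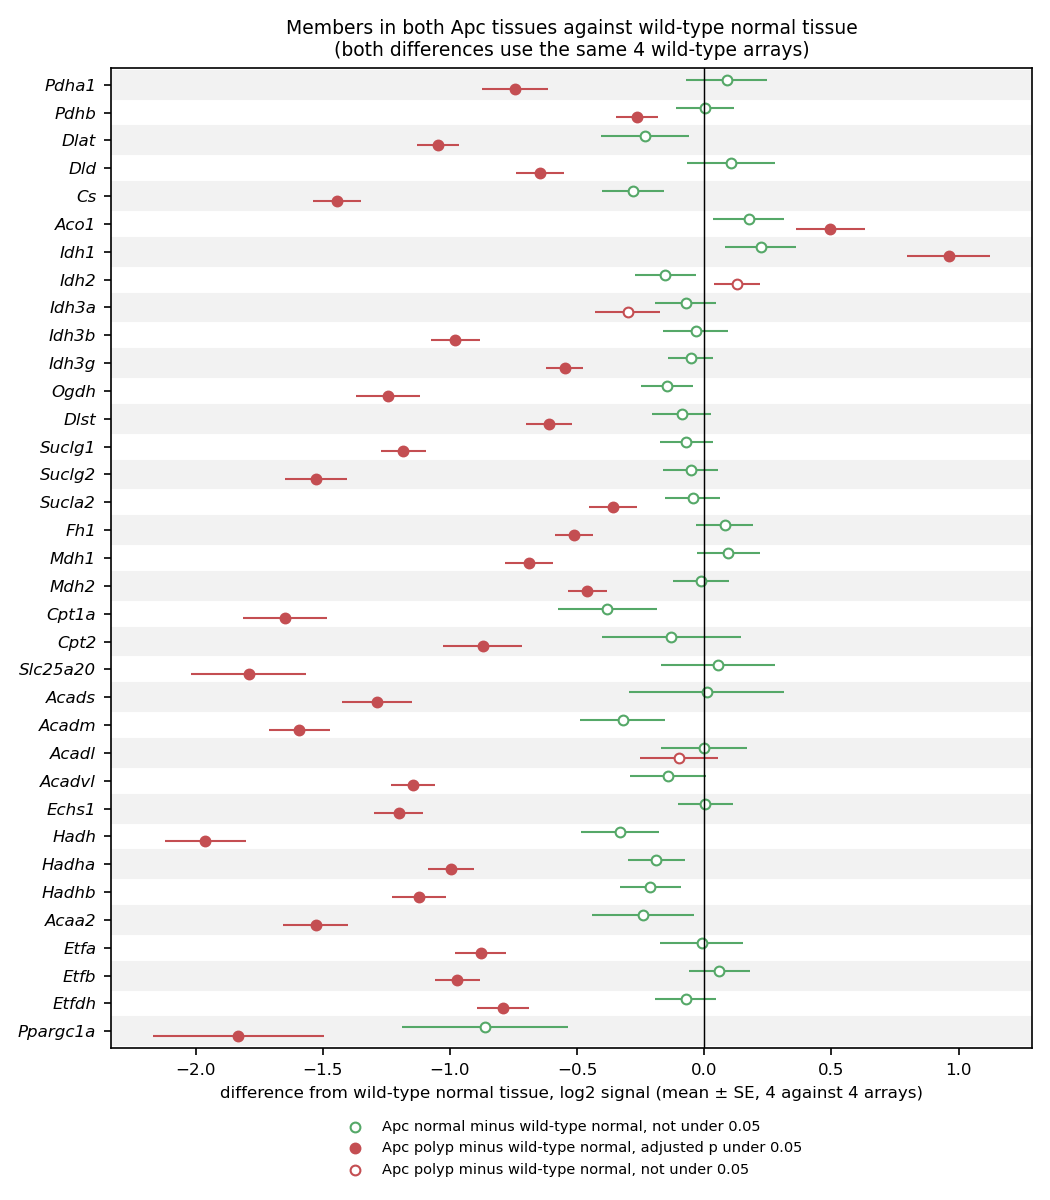
Differences of the 35 genes (y axis) from wild-type normal tissue, on the log2 signal scale (x axis), for Apc normal tissue (green) and Apc polyps (red); both use the same 4 wild-type arrays. Points are means with bars of ± SE (4 against 4 arrays), filled where the limma adjusted p was under 0.05. No green point is filled, 32 of the 35 red points are, and Ppargc1a has the lowest green point at −0.86. Scaled to 4 epithelial genes, the red points of Pdhb, Idh3a, Idh3g, Sucla2, Fh1, Mdh2 and Acadl move above 0.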

How the data were processed

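Cy3-labelled RNA of 12 colorectal samples was measured on Agilent mouse arrays. Per the file headers, the authors' scanner files give each spot's intensity, with Feature Extraction 10.7.3.1 providing a background-subtracted, processed linear signal. The submitters' processing notes name the same version. A deposited value table holds linear ratios. The sources used here do not say how it was made, but 99.8 to 99.9% of each column's entries came within 1% of processed signal over a constant, with column medians from 0.99995 to 1. Coordinates of probes are those the files give, in mm9.

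From the deposited intensity, log2 levels were computed here: spots of 1 probe were averaged, after dropping controls and 1403 outliers, and the array's 75th percentile was subtracted. A GRCm38.p6 RefSeq table named 27508 of the 39429 probes through accessions, 3544 through symbols and 404 through synonyms, leaving 7973 with the name in the file. A gene was represented by its brightest probe over the 12 arrays. The filter on dim probes required all 4 arrays of any group to be well above background and kept 20084 of 30139 genes. In 26 of them 1 or more arrays were missing after outlier removal, and the fit used the rest.

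Tests were made with limma 3.58.1 (R 4.3.3; lmFit, eBayes), separately for the 8 arrays of a comparison, two-sided, with Benjamini-Hochberg adjustment over all tested genes and a threshold of 0.05. The number of arrays limits the precision, and p-values measure the spread between mice within a group. The main fit of polyps against Apc normal tissue did not use the pairing by mouse, which entered as an alternative. The limma step was tested on simulated gene levels, drawn independently for each array. Probe naming, scaling, outlier removal and the filter were not part of that simulation. The listed genes, other lists, alternatives and comparisons were chosen with earlier results of these data known. All 35 genes were named, with array values for at least 1 gene per step and for genes that differed from the rest, and of each other pathway list the 3 called genes of smallest p in either direction, except for a result that is not reported here. Other named genes and the cell type markers printed were picked after their values were seen.

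Per the labels, arrays that share a mouse number hold the polyp and the normal tissue of that mouse. Their deviations from the group means correlated across genes at 0.455, 0.170, 0.143 and 0.282 for mice 103, 106, 107 and 110, against −0.328 to 0.193 between different mice. Alternatives covered scaling, background correction, filter, probe choice, variance model, the value table, a joint fit of all arrays, leaving out each array, mouse or slide as a block and single slides. Scaling to 4 epithelial genes was added after seeing the data.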

Additional observations from a re-analysis of the deposited data

Results flagged for a closer look

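In each group of 4 arrays, the 54 genes named by rule were screened for an array whose gap to the nearest of the other 3 took up most of the range of the group (Dixon's criterion). Of 162 sets of 4 arrays, 11 met it, and chance gives about 1 in 20. All values are log2 levels. In wild-type normal tissue, mouse 105 was lowest for Dld (2.09, the others 2.36 to 2.40) and for Mdh1 (4.39, the others 4.62 to 4.66), mouse 102 was highest for Cpt2 (3.29, the others 2.67 to 2.71), and mouse 104 was lowest for Nrip1 (1.13, the others 1.27 to 1.29).

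In Apc normal tissue, mouse 106 was lowest for Cpt1a (2.74, the others 3.34 to 3.45) and mouse 103 highest for Esrra (4.11, the others 3.64 to 3.69). Mouse 107 was highest there for Hadha (2.13, the others 1.80 to 1.85) and for Etfb (5.68, the others 5.27 to 5.30). Among polyps, mouse 110 was highest for Acadl (2.25, the others 1.81 to 1.87), mouse 106 lowest for Etfa (2.91, the others 3.18 to 3.23) and mouse 103 lowest for Tomm20 (3.23, the others 3.39 to 3.41).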

How the results depend on the processing

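In polyps against Apc normal tissue, 25 of the 29 called genes kept call and direction over all 19 alternatives that used at least 3 arrays a group without rescaling to epithelial genes, and the exceptions were Cpt2, Idh3g, Mdh2 and Sucla2. The count of lower genes was 28 and ran from 26 to 29 with an array left out, and was 24 with quantile normalization, 25 with normexp correction and quantile normalization, with the array median as scale and with the value table, and 26 with no filter; that of higher genes was 1, ran from 1 to 2 with an array left out, and was 2 with quantile normalization, with normexp correction and quantile normalization, with the stricter filter on dim probes and with all 12 arrays in 1 fit. On slide 2 alone 10 genes were lower and 0 higher (3466 of all genes called, against 9130), and on slide 3 alone 6 and 0 (1902 of all genes); fewer arrays were used there. The replicate block by mouse, which follows the pairing in the titles, gave 27 lower and 1 higher with 9322 genes called, and changed 3 calls: Cpt2 (adjusted p = 0.0659) and Sucla2 (adjusted p = 0.0879) were lost and Ppargc1a was gained. Scaling to epithelial genes, added after seeing the data, gave 15 lower and 3 higher (against wild-type tissue 19 and 4). It turned Idh3g to 0.0195, Sucla2 to 0.20 and Mdh2 to 0.0661, and the uncalled Pdhb to 0.25, Idh3a to 0.29 and Acadl to 0.42. Against wild-type tissue it turned Pdhb to 0.33, Idh3a to 0.29, Idh3g to 0.0407, Sucla2 to 0.23, Fh1 to 0.0786, Mdh2 to 0.13 and Acadl to 0.49. This scaling raises every gene alike, so only the smaller differences change sign. In Apc normal against wild-type tissue, 0 of the 35 genes were called in each of the 18 alternatives run, while calls over all genes, 34 with the main settings, numbered 3 with normexp correction and quantile normalization, 2 with no filter on dim probes, 226 with all 12 arrays in 1 fit, 14 with a variance trend and 814 with slide as a random block, and ran from 2 to 530 with an array left out, the highest without the Apc normal array of mouse 103. Slide as a random block cannot adjust this comparison for slide, since slide 1 held all the wild-type arrays and no others. The correlation within slides was estimated at −0.0816 in that fit. The causes of these changes in counts were not tested. Other changes of sign in differences that did not pass the test were not followed. Signal did not limit the 35 genes, which were above background on all arrays, but Esrrg, Ppargc1b and Lmod1 were dim in polyps, so their declines are set partly by background.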
